A study of Oryza sativa Indica Group with 2 samples.

Results

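The Polycomb repressive complex 2 (PRC2) subunit genes of rice comprised 6 loci of the 55337 loci in the table. They were chosen by name from a list of known subunits, not by their values, but with earlier results of these data known. They form 3 paralog pairs, *CLF* and *iEZ1*, *FIE1* and *FIE2*, and *EMF2a* and *EMF2b*. Poly(A) RNA from meiotic young panicles of field-grown indica rice was sequenced for *Osam1* plants and for the parental variety Zhongxian 3037, used as the wild type, with 1 library for each. The *Osam1* line arose from gamma irradiation and carries a 2-nucleotide deletion with a premature stop codon in *OsAM1*, a gene needed for the step from leptotene to zygotene in meiotic prophase. Each RNA sample pooled spikelets of several panicles, so the values are averages over germ cells and the many somatic cells of the spikelet.

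PRC2 places methyl groups on lysine 27 of histone H3, a mark of silenced chromatin. Its core holds a catalytic subunit of the Enhancer of zeste class (E(z), in rice *CLF* and *iEZ1*), a WD40 subunit of the Extra sex combs class (ESC, in rice *FIE1* and *FIE2*) that binds histone H3, and a zinc finger subunit of the Suppressor of zeste class (Su(z)12, in rice *EMF2a* and *EMF2b*). In rice the complex is known for its part in flowering time, floral organ identity and endosperm development.

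With 1 library per genotype there is no replicate spread, so no difference has a test, an error or a p-value. The deposited unit is FPKM, fragments relative to transcript length and library size, so levels of different genes were set side by side. The study states that only reads lying wholly within exons could be matched to transcripts. How far the loss of junction reads differs between genes was not tested, so levels of different genes compare only roughly. For a locus with several transcript models, their FPKM were added. Ratios between the libraries are log2((FPKM + 1) in the *Osam1*-labelled library / (FPKM + 1) in the wild-type-labelled library), and a locus was called changed from 2-fold, a log2 ratio of at least 1 in size. The heading of the column labelled *Osam1* is spelled with a capital AA and that of the column labelled wild type with a small aa, and the sources used here do not pair *OsAM1* with a locus, so the labels were not checked on the mutated gene. The mapping summary of the study lists *Osam1* as the deeper library, whereas the commonest ratio of low values in the table, if it is 1 read against 1 read, makes the wild-type-labelled library the deeper one. The study also reports more expressed genes in *Osam1*, by its own cutoff. Here 22088 loci were above 0 in the *Osam1*-labelled library and 23756 in the wild-type-labelled library, the opposite order. Every direction therefore rests on the submitters' labels. *MEL1* (LOC_Os03g58600), an Argonaute gene of germ cells, had 22.1 and 19.6 FPKM in the *Osam1*-labelled and wild-type-labelled libraries, and *MIL1* (LOC_Os07g05630), an anther glutaredoxin gene, had 7.96 and 4.48 FPKM. Both genes were thus above 0 in each library, which does not by itself place the stage of the germ cells. In the *Osam1*-labelled and wild-type-labelled libraries, *MEL1* ranked above 62.2% and 60.8% of the loci with values. *MIL1* ranked above 39.1% and 32.0%.

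Of the 6 PRC2 genes, 5 had values above 0 in both libraries and *FIE1* was listed at 0 in both. *FIE2* was the only gene of the 5 past 2-fold, and it was lower in the *Osam1*-labelled library. The other 4 genes, *CLF*, *iEZ1*, *EMF2a* and *EMF2b*, stayed within 2-fold as sums of their transcript models. Among all 55337 loci, 20.8% passed 2-fold in either direction, and among the 27498 loci above 0 in at least 1 library 41.9% did, with 22.6% lower and 19.3% higher in the *Osam1*-labelled library. The share of the PRC2 genes with values, 1 of 5 or 20.0%, was not above this background. The 20.8% counts loci at 0 in both libraries, which cannot pass, and the 41.9% counts loci at 0 in 1 library. The 5 genes had values in both, so neither share is for a like set. Their median log2 ratio was -0.12, beside -0.01 over all loci above 0 in at least 1 library and 0.09 over loci above 0 in both.

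**Figure D1:**
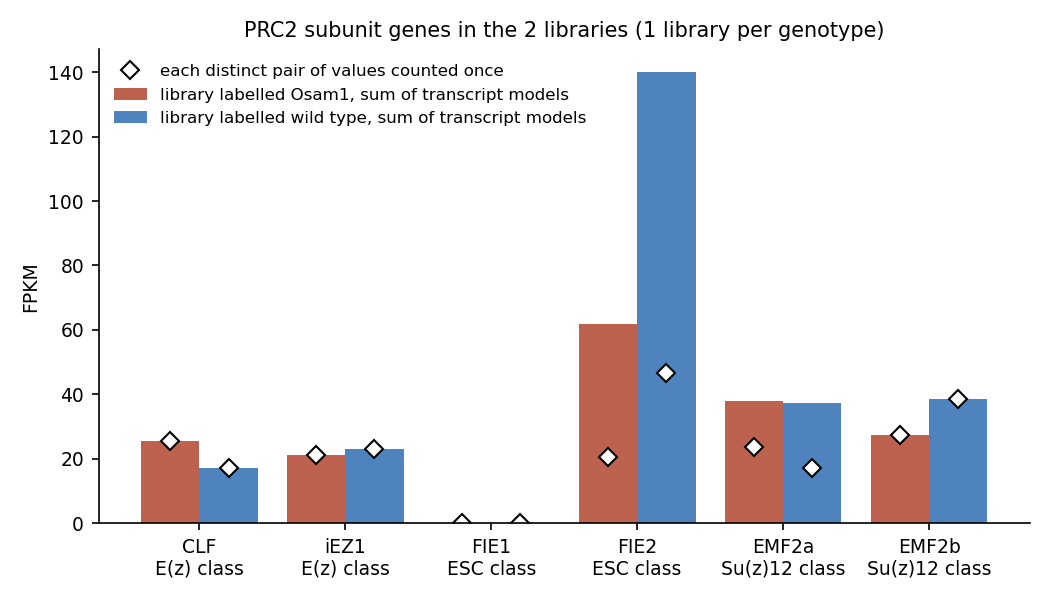
FPKM of the 6 PRC2 genes (vertical axis) in the *Osam1*-labelled (red) and wild-type-labelled (blue) libraries, 1 library each and without error bars. Bars are sums over transcript models and diamonds count each distinct pair of values of a locus once. *FIE1* is at 0, *FIE2* spans 61.8 to 140.1 FPKM as a sum, and the diamonds of *FIE2* and *EMF2a* lie below their bars.

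Both catalytic subunit genes had values between 17.2 and 25.5 FPKM. *CLF* (LOC_Os06g16390, chromosome 6), whose product represses flowering under long days, had 25.5 FPKM in the *Osam1*-labelled library and 17.2 FPKM in the wild-type-labelled library. Its log2 ratio was 0.54. *iEZ1* (LOC_Os03g19480, chromosome 3), linked to flowering under short days, had 21.3 FPKM in the *Osam1*-labelled library and 23.1 FPKM in the wild-type-labelled library, a log2 ratio of -0.12. Each of these loci has 1 transcript model, so neither value depends on how models are combined. In their level class, means from 10 to below 30 FPKM, 36.4% of loci passed 2-fold.

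Within the pair, the order of the levels differed between the libraries. *CLF* was above *iEZ1* in the *Osam1*-labelled library, with a log2 ratio of *CLF* over *iEZ1* of 0.25, and below it in the wild-type-labelled library, with -0.41. Both ratios were well under 2-fold, and the change of 0.66 between them has no replicate check. Added together, the pair had 46.8 FPKM in the *Osam1*-labelled library and 40.3 FPKM in the wild-type-labelled library.

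*FIE1* and *FIE2* lie near each other on chromosome 8, with a single locus listed between them. *FIE1* (LOC_Os08g04290) is known in rice as a maternally expressed, imprinted gene of the endosperm, a tissue that forms after fertilisation. Its 1 transcript model was listed at 0 in both libraries. Since the files hold no counts and no transcript lengths, no upper limit goes with this 0. The study's mapping summary separates reads with a unique position from reads with several, and its methods say that ERANGE assigned reads to their site of origin. Its results speak of quantifying all unique transcripts that mapped to the genome. None of these states how reads matching both copies entered the deposited values. The split of reads between *FIE1* and *FIE2* is uncertain to that extent. No ratio of *FIE1* to *FIE2* is given, because one of its terms is listed at 0.

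*FIE2* (LOC_Os08g04270), the broadly expressed copy, had sums of 61.8 FPKM in the *Osam1*-labelled library and 140.1 FPKM in the wild-type-labelled library. The wild-type-labelled library was 2.27 times as high, and the log2 ratio was -1.17. *FIE2* ranked above 84.8% of the loci with values in the *Osam1*-labelled library and above 94.2% of those in the wild-type-labelled library. The mean of its sums falls in the class from 100 FPKM upward, in which 21.6% of 1988 loci passed 2-fold in either direction.

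The 3 transcript models of *FIE2* had equal values, 20.6 FPKM each in the *Osam1*-labelled library and 46.7 FPKM each in the wild-type-labelled library. Its ratio is therefore nearly the same for 1 model, at -1.14, as for the sum, but its level is not. If the same reads were counted for each model, the level of the gene is that of 1 model. If reads were divided among the models, it is the sum. These cannot be told apart in the files. At the level of 1 model, *FIE2* falls in the class of 30 to below 100 FPKM, in which 24.9% of loci, counted as sums, passed 2-fold. The matter is not particular to *FIE2*: of 4287 loci with several transcript models above 0, 1499 (35.0%) had at least 2 models with equal values in both libraries.

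**Figure D2:**
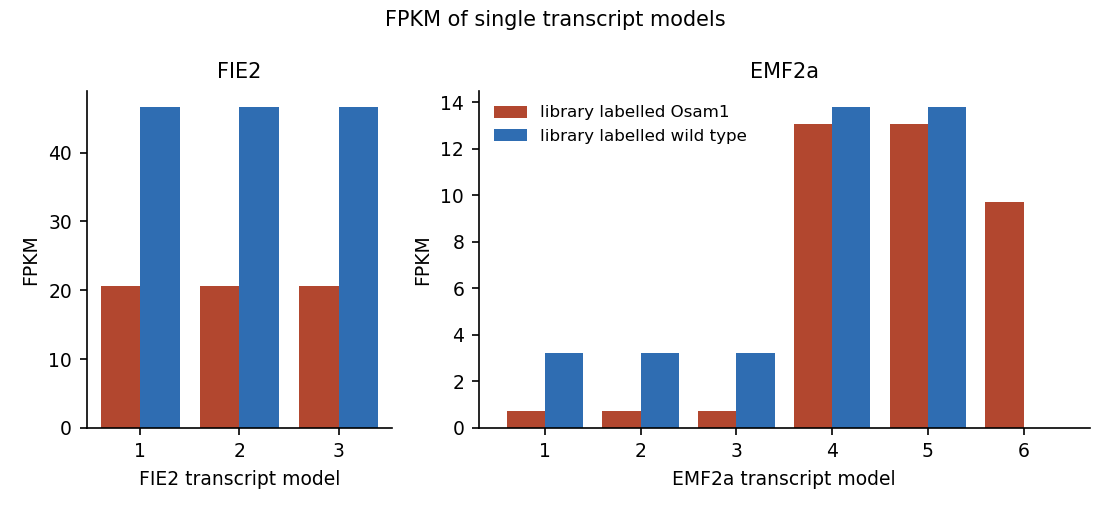
FPKM (vertical axes, which differ between panels) of each transcript model of *FIE2* (left) and *EMF2a* (right) in the *Osam1*-labelled (red) and wild-type-labelled (blue) libraries. The 3 *FIE2* models are equal, whereas *EMF2a* models fall into sets of 3, 2 and 1, and model 6 has 9.72 FPKM in the *Osam1*-labelled library and is listed at 0 in the other.

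The loci directly beside *FIE2* had other values. LOC_Os08g04280, between *FIE2* and *FIE1*, had 109.9 FPKM in the *Osam1*-labelled library and 65.7 FPKM in the wild-type-labelled library, a log2 ratio of 0.73 and thus in the opposite direction to *FIE2*. On the other side of *FIE2*, LOC_Os08g04260 was listed at 0 in both libraries. Beyond *FIE1*, LOC_Os08g04300 was listed at 0 in the *Osam1*-labelled library and at 7.88 FPKM in the wild-type-labelled library. *FIE1* thus lay between a locus with high values in both libraries and a locus with a value in 1 library alone.

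**Figure D3:**
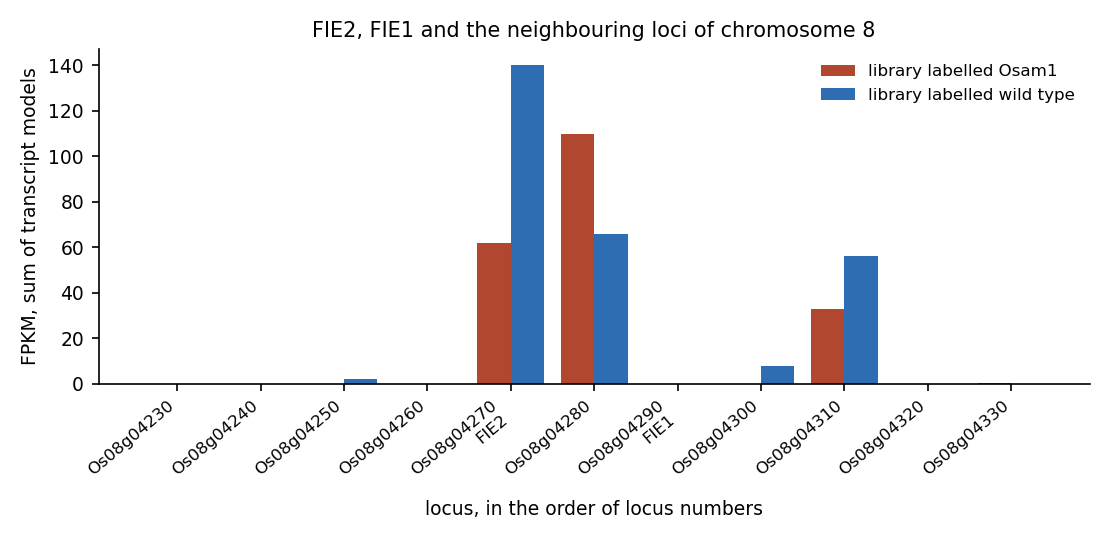
Summed FPKM (vertical axis) of *FIE2*, *FIE1* and their neighbours on chromosome 8, in the order of locus numbers, in the *Osam1*-labelled (red) and wild-type-labelled (blue) libraries. *FIE1* shows no bar between LOC_Os08g04280, at 109.9 and 65.7 FPKM, and LOC_Os08g04300, at 0 and 7.88 FPKM.

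For the Su(z)12 class, the answer to which paralog was more abundant depended on how transcript models were combined. *EMF2b* (LOC_Os09g13630, chromosome 9), needed in rice for normal floral organs and meristem determinacy, has 1 transcript model. It had 27.5 FPKM in the *Osam1*-labelled library and 38.5 FPKM in the wild-type-labelled library, a log2 ratio of -0.47. *EMF2a* (LOC_Os04g08034, chromosome 4), its paralog, has 6 transcript models with sums of 38.0 FPKM in the *Osam1*-labelled library and 37.3 FPKM in the wild-type-labelled library. Its log2 ratio was 0.03 and became -0.041 and -0.032 when the libraries were scaled by their median ratio or by their 75th percentiles. As sums, *EMF2a* over *EMF2b* was 0.45 on the log2 scale in the *Osam1*-labelled library and -0.04 in the wild-type-labelled library.

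The near equality of the *EMF2a* sums hid models with unlike values. Models 1, 2 and 3 had 0.72 FPKM each in the *Osam1*-labelled library and 3.23 FPKM each in the wild-type-labelled library, a log2 ratio of -1.30. Models 4 and 5 carried most of the sum, with 13.1 FPKM each and 13.8 FPKM each, a log2 ratio of -0.07. Model 6 had 9.72 FPKM in the *Osam1*-labelled library, 25.6% of the sum, and was listed at 0 in the wild-type-labelled library. Models 1, 2 and 3 were thus past 2-fold lower in the *Osam1*-labelled library, while model 6 had a value in that library alone. The 3 models share 1 pair of values and so count as 1 observation. Their values are low and the reads behind them are unknown, so no shift between models can be read from them. Of all transcript models above 0 in at least 1 library, 47.6% passed 2-fold. One transcript model of another locus, LOC_Os04g49670, has the same pair of values as model 6. Of 76 transcript models with 9 to below 10 FPKM in the *Osam1*-labelled library and a 0 in the other, 37 shared their value with a model of another locus.

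With each distinct pair of values counted once, a choice made after the values were seen, *EMF2a* had 23.5 FPKM in the *Osam1*-labelled library and 17.0 FPKM in the wild-type-labelled library. *EMF2b* then had the higher level in both libraries, with log2 ratios of *EMF2a* over *EMF2b* of -0.22 and -1.13. With the highest *EMF2a* model alone, these were -1.02 and -1.41. Of the 4 ways tried to give a locus a value, the sum is the only one in which *EMF2a* exceeded *EMF2b* in either library.

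**Figure D4:**
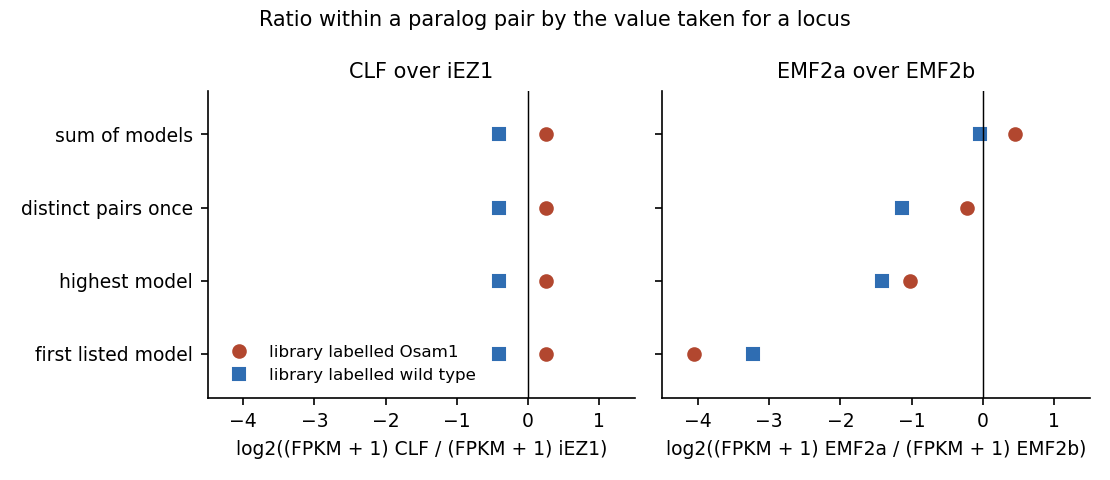
Log2 ratio within a paralog pair (horizontal axis) for 4 ways to give a locus a value (rows), in the *Osam1*-labelled (red circles) and wild-type-labelled (blue squares) libraries. *CLF* over *iEZ1* stays at 0.25 and -0.41, whereas *EMF2a* over *EMF2b* moves from 0.45 and -0.04 for sums to -4.05 and -3.22 for the first listed model.

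Across the complex, the order of the levels also turned on the models. As sums, *FIE2* led in both libraries. In the *Osam1*-labelled library *EMF2a*, *EMF2b*, *CLF* and *iEZ1* followed in this order, within 21.3 to 38.0 FPKM. In the wild-type-labelled library the order was *EMF2b*, *EMF2a*, *iEZ1* and *CLF*, within 17.2 to 38.5 FPKM. With distinct pairs counted once, the 5 genes lay between 20.6 and 27.5 FPKM in the *Osam1*-labelled library, where *FIE2* was the lowest of them, and between 17.0 and 46.7 FPKM in the wild-type-labelled library, where *FIE2* was the highest. No spread between replicates is known, so no order of neighbours in these lists can be called a difference. Added by subunit class in this way, the *Osam1*-labelled library had 46.8 FPKM for E(z), 20.6 FPKM for ESC and 51.0 FPKM for Su(z)12, and the wild-type-labelled library had 40.3, 46.7 and 55.5 FPKM. As sums of all transcript models, the totals were 46.8, 61.8 and 65.5 FPKM in the *Osam1*-labelled library and 40.3, 140.1 and 75.8 FPKM in the wild-type-labelled library, so the place of the ESC class among the 3 classes depends on how models are combined. In bulk RNA, fewer cells of a type and less RNA per cell cannot be told apart.

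**Figure D5:**
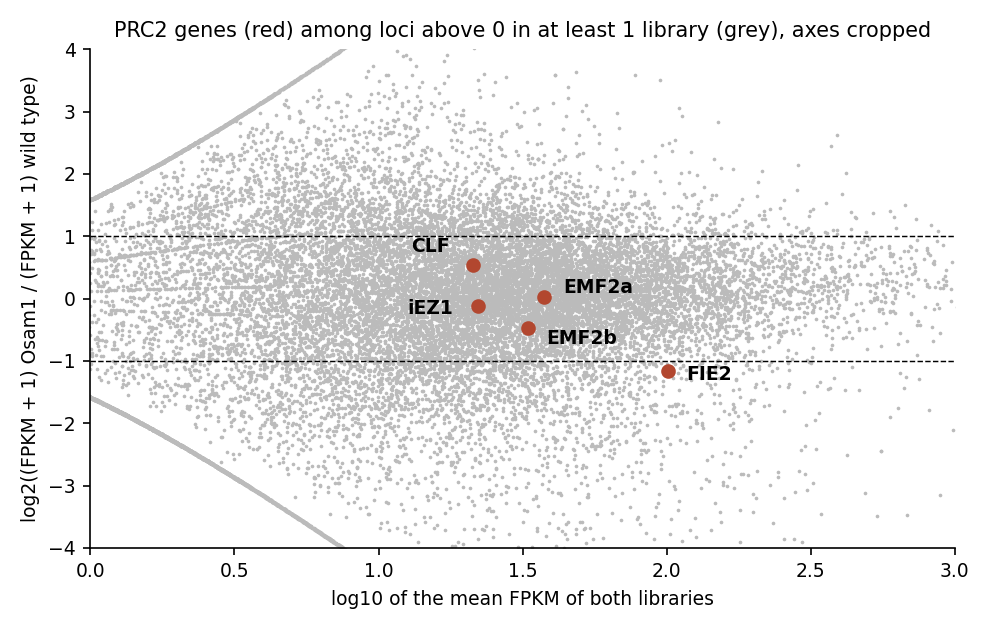
Log2 ratio of FPKM + 1 between the *Osam1*-labelled library and the wild-type-labelled library (vertical axis) against the log10 mean FPKM of both libraries (horizontal axis) for loci above 0 in at least 1 library (grey) and the 5 PRC2 genes with values (red). Dashed lines mark 2-fold, the axes are cropped to the range of most loci, and *FIE2*, at -1.17, is the only red point past a line.

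Of the loci directly beside *CLF*, *iEZ1*, *EMF2a* and *EMF2b*, LOC_Os06g16380 passed 2-fold higher in the *Osam1*-labelled library. LOC_Os03g19470 and LOC_Os03g19490 passed 2-fold lower in it, the latter with a listed 0. Among loci above 0 in at least 1 library, 41.9% passed 2-fold in either direction. Beside *CLF*, LOC_Os06g16380 had 55.8 FPKM in the *Osam1*-labelled library and 10.5 FPKM in the wild-type-labelled library, a log2 ratio of 2.31, and LOC_Os06g16400 had 20.1 and 11.0 FPKM. Beside *iEZ1*, LOC_Os03g19470 had 1.80 and 10.5 FPKM, and LOC_Os03g19490 was listed at 0 and 7.54 FPKM. Beside *EMF2b*, LOC_Os09g13610 had 16.0 and 12.7 FPKM, and LOC_Os09g13640 was listed at 0 in both libraries. *EMF2a* stood among loci with little or no signal. Of the 4 loci on either side of it, 8 in all, 7 were listed at 0 in both libraries, and LOC_Os04g08060, directly after it, had 4.15 and 1.75 FPKM. Of all loci, 50.3% were listed at 0 in both libraries. The width of 4 loci was chosen after the values were seen.

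A list of 5 further loci was drawn up from general knowledge as candidates for the rest of the Polycomb pathway (the WD40 histone chaperone of the core, plant homeodomain partners, a reader and a demethylase of the mark). The tables used here do not annotate them, so they are given by ID. None of the 5 passed 2-fold in any setting tried. Each has 1 transcript model, so the choices of model could not change this, and neither could exchanging the labels. Among loci above 0 in at least 1 library, 41.9% passed, a share that counts loci at 0 in 1 library. All 5 had values in both libraries, so that share is not for a like set. Their median log2 ratio was 0.58, beside -0.01 over loci above 0 in at least 1 library and 0.09 over loci above 0 in both. LOC_Os03g43890 had the highest level of the list, with 119.4 FPKM in the *Osam1*-labelled library and 110.2 FPKM in the wild-type-labelled library. LOC_Os12g34850 had 26.5 and 13.8 FPKM, a log2 ratio of 0.90. LOC_Os10g17770 had 26.4 and 49.2 FPKM, a log2 ratio of -0.88, and was the only one of the 5 lower in the *Osam1*-labelled library. LOC_Os02g05840 had 30.4 and 20.1 FPKM, and LOC_Os01g67970 had 10.5 and 6.40 FPKM.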

How the data were processed

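Poly(A) RNA of young panicles was sequenced as 1 nondirectional library per genotype, after 18 cycles of PCR, in pairs of 100 bp reads. The authors filtered the reads, aligned them with SOAPaligner/soap2 to the rice genome of the Rice Genome Annotation Project, and ERANGE gave the expression values. The deposited unit is FPKM with 2 decimals for each transcript model, although RPKM is the unit in the methods. The annotation release is not given in the sources used here.

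The 65535 rows were grouped into 55337 loci and transcript models were added. No replicate, and hence no test, exists. Alternatives were 0.1 or 0.01 FPKM added before the log in place of 1, division by the median ratio or the 75th percentiles, the first listed or highest model, exchanged labels, other sets of loci for the background and, chosen after seeing the data, each distinct pair of values counted once. The table ends within chromosome 12, and later loci were not analysed here. Members, lists and the adding of models were chosen with earlier results of these data known. The genes named are all members, their direct neighbours, loci sharing a member's values, the further list, *MEL1* and *MIL1*. Gene symbols came with the member list, since 0 of the 6 locus IDs occur in the RefSeq table at hand. Endosperm and green-tissue markers were not used here for the same reason.

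Reads per locus are unknown. Among 841 loci with 1 transcript model and 0.2 to 1 FPKM in the wild-type-labelled library, 154 lay at the commonest ratio, where the *Osam1*-labelled library was 2.37 times as high. If this step is 1 read against 1 read, the *Osam1*-labelled library was the shallower. The study's mapping summary lists *Osam1* as the deeper library. The code for ratios and 2-fold calls was checked on simulated inputs with known changes well past 2-fold, at means from 30 FPKM upward. Changes near 2-fold and lower levels were not simulated, so the check does not cover them. Python 3.11.15, numpy 2.4.6, pandas 2.3.3 and matplotlib 3.10.9 were used.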

Additional observations from a re-analysis of the deposited data

Results flagged for a closer look

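The order of a paralog pair differed between the libraries in both pairs for which a ratio can be had. *CLF* over *iEZ1* was 0.25 on the log2 scale in the *Osam1*-labelled library and -0.41 in the wild-type-labelled library, and *EMF2a* over *EMF2b*, as sums, was 0.45 and -0.04. What drew attention is that 1 library lay on each side of 0. With 1 library per genotype the difference was not tested, and for *EMF2a* it did not outlast another way of combining the transcript models. *CLF* and *iEZ1* have 1 transcript model each, so for them the way of combining models could change nothing.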

How the results depend on the processing

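*FIE2* lay between -1.24 and -1.14 on the log2 scale with every added value, scaling and choice of model. These settings could hardly move it: its 3 models are equal, its values are far above the added ones, and the scalings were 1.05 and 1.043. None of them stands in for a replicate. Exchanging the labels turns every direction: *FIE2* becomes 1.17, *CLF* -0.54, *iEZ1* 0.12, *EMF2a* -0.0272 and *EMF2b* 0.47, the members past 2-fold become 1 higher and 0 lower, and the changes of the pair ratios become -0.66 for *CLF* over *iEZ1* and -0.50 for *EMF2a* over *EMF2b*. *EMF2a* moved from 0.03 to -0.041 with the median ratio, -0.032 with the 75th percentiles and -0.0729 with its highest model. It became 0.44 with distinct pairs counted once and -1.30 with its first listed model, which made 2 members lower. That model has low values, 0.72 and 3.23 FPKM in the *Osam1*-labelled and wild-type-labelled libraries. The ratio of *EMF2a* over *EMF2b* in the *Osam1*-labelled and wild-type-labelled libraries became -4.05 and -3.22 with the first listed model, -1.02 and -1.41 with the highest model, and -0.22 and -1.13 with distinct pairs counted once, because each takes less of *EMF2a* than the sum, and its change between the libraries became -0.83 with the first listed model and 0.91 with distinct pairs counted once, from 0.50. The number of loci past 2-fold fell most with loci above 0 in both libraries, to 2881 higher and 2788 lower from 5298 and 6223. That set also holds fewer loci, so these counts do not give the change in share. No ratio of *FIE1* was computed, since it is listed at 0. No paired analysis was possible because each genotype has 1 library. Reads per gene are not in the table, so no counting error goes with the values.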
